A study of Homo sapiens with 42 samples.

Results

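The genes described here encode the proteins that load and start replication origins and that build and protect the moving DNA replication fork. They were chosen by gene symbol from a list of 55 genes, and all 55 were measured among the 18404 genes of the table that carried a single symbol. Only UHRF1 had more than 1 entry, and its brighter entry was used. Their levels were followed in 2 human lung cancer cell lines, H460, described by the submitters as radiosensitive, and H1299, described as radioresistant. Growing monolayer cultures of each line received 2 Gy of gamma radiation, and total RNA was hybridised to 1-colour Affymetrix arrays. Each line has 6 arrays at 0 h, labelled as taken before irradiation, and 3 arrays at each of 2, 4, 8, 12 and 24 h afterwards, 42 arrays in 12 groups. The treatment protocol also mentions control cells, not irradiated and kept for the same times, but the labels of the arrays place none of them after 0 h, and whether any of the 6 arrays at 0 h came from such cells cannot be told. Within each line no genetic change or drug separates the groups. Time after irradiation and time in culture cannot be told apart in these arrays. Each line comes from 1 tumour, so a difference between the lines cannot be assigned to any 1 of the ways in which they differ.

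Replication begins when the origin recognition complex ORC, with CDC6 and CDT1, loads the MCM2-7 ring onto DNA in G1, a step called licensing that geminin (GMNN) blocks later in the cycle. At the start of S phase the kinases CDC7-DBF4 and CDK2 turn the loaded ring into the active CMG helicase by adding CDC45 and the GINS complex. Primase and DNA polymerases alpha, delta and epsilon then copy the strands behind it, held by the PCNA clamp, while FEN1 and LIG1 join the lagging-strand pieces and CAF-1 repacks the new DNA into chromatin. Many of these genes are transcribed at the G1 to S boundary by E2F factors, which bind GC-rich promoter sites.

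Promoter windows, from 250 bases before to 50 after the start site, were read from RefSeq (GRCh38.p14), which gave a window for 45 of the 55 genes; the genes without one were ATAD2, DNA2, DSCC1, FAM111B, GINS4, MCM4, MCM5, POLD3, RPA2 and RPA3. The windows of GINS2, FEN1 and MCM8 are shown by a rule. Of the genes described in full that have a window, these had the smallest time course p in either line. MCM5 and FAM111B had a smaller p than MCM8 but no window. MCM2, MCM6 and MCM7 are shown as ring subunits whose windows hold E2F-type letters more than once, chosen after the letters had been counted. The window of MCM3, which also holds them more than once, is not shown. GINS2 lies at chr16:85688905-85689204 on the minus strand, FEN1 at chr11:61792661-61792960 on the plus strand and MCM8 at chr20:5950402-5950701 on the plus strand. MCM2 lies at chr3:127598161-127598460 on the plus strand, MCM6 at chr2:135876394-135876693 on the minus strand and MCM7 at chr7:100101348-100101647 on the minus strand. Each is written on its gene's strand, and the capitals mark matches on either strand to TTTCCCGC, TTTGGCGC, TTTCGCGC or TTTGCCGC, the letters of E2F-type sites.
GINS2: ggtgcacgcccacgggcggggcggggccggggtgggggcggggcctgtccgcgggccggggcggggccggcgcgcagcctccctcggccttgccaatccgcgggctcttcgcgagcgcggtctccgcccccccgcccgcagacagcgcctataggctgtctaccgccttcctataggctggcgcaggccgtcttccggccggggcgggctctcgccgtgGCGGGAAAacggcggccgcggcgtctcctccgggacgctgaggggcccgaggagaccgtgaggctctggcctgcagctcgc
FEN1: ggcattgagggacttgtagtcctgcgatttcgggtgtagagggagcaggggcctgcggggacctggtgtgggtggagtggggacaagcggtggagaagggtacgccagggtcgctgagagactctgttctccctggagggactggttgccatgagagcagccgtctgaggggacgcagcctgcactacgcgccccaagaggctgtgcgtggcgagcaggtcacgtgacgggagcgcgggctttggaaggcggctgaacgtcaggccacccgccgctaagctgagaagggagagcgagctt
MCM8: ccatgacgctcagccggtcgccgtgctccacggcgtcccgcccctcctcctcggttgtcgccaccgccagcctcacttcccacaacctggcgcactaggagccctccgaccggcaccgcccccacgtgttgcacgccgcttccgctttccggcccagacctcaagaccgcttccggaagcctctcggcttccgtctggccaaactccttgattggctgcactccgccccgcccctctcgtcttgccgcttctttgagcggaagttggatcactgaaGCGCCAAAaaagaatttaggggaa
MCM2: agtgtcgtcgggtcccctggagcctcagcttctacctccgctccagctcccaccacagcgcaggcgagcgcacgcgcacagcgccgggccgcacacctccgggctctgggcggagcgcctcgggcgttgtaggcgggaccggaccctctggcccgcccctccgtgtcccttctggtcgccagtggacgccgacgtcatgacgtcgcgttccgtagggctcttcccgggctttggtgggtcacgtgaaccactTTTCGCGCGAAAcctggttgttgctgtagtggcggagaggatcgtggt
MCM6: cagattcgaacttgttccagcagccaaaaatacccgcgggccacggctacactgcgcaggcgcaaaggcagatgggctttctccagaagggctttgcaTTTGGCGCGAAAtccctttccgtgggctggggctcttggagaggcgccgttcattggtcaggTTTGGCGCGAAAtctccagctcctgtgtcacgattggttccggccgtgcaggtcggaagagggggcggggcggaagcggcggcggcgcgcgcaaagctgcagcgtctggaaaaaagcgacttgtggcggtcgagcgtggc
MCM7: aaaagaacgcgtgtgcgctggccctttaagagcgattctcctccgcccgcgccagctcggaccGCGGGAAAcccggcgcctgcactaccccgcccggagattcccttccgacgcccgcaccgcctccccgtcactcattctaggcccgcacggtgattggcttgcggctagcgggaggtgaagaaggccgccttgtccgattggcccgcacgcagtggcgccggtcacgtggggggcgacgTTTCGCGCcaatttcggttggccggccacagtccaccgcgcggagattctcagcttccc
In MCM2 and MCM6 a match on 1 strand overlaps a match on the other, and MCM6 holds 2 such pairs. Such letters were present in 20 of the 45 windows (44.4%), against 644 of 14230 windows of tested genes (4.53%) and 3.33% of all 27305 windows. They were in 4 of 4 windows of the ring (MCM2, MCM3, MCM6 and MCM7), 3 of 4 of the helicase activators, 1 of 6 of ORC and 0 of 3 of the fork protection and FAM111 genes. The letters TTTGAA or TTCGAA of the cell cycle genes homology region, which mark many genes of G2 and mitosis, were in 2 windows (4.44%, against 13.3% of tested genes). A match is a description of these letters, not of binding.

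The arrays differed in width, taken as the distance between the quartiles of an array's values. In H460 the mean width was 3.34 at 0 h, 2.84 at 2 h and 3.64 to 3.67 at 8 to 24 h, and in H1299 1 array, 0 h replicate 2, had a width of 3.24 against a mean of 3.58. No 2 arrays held identical values. Of 5 epithelial markers, the keratins KRT8 (12.18 and 10.81 in H460 and H1299, mean log2 level at 0 h) and KRT18 (12.18 and 12.12) were high in both lines, KRT19 was high in H460 alone (11.36 and 5.23), and EPCAM (3.97 and 3.67) and CDH1 (3.78 and 3.71) were low in both. Of 3 mesenchymal markers, VIM was high in both (11.25 and 11.94), FN1 was higher in H460 (12.03 and 7.26) and CDH2 in H1299 (5.18 and 8.97). The leukocyte markers read 2.68 and 2.66 for PTPRC, 3.85 and 3.58 for CD3E and 5.93 and 4.77 for CD14. The fibroblast markers read 2.97 and 2.92 for DCN, 3.48 and 2.47 for LUM, 6.72 and 6.26 for COL1A1 and 5.87 and 4.72 for PDGFRB. Levels of different genes rest on different probes. The arrays read bulk RNA, so fewer cells in S phase and less RNA per cell cannot be told apart, and p-values measure the spread between arrays labelled as biological replicates.

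In H460 the change from 0 h of the origin and fork genes was mostly a fall, seen at 12 and 24 h. At 12 h 27 were lower and 3 higher at an adjusted p under 0.05 (limma, Benjamini-Hochberg over all genes), against 16.8% lower and 16.7% higher of all genes tested. At 24 h 30 were lower and 3 higher (12.4% and 16.2% of all genes). The median log2 change of the 55 was -0.29 and -0.37, against -0.043 and -0.052 over all genes. All 3 arrays lay below every 0 h array for 26 genes at 12 h and 30 at 24 h (13.7% and 10.5% of all genes). At 8 h 14 were lower and 5 higher (6.22% and 10.7%), with 28 lower under quantile normalization and 9 without 8 h replicate 2. The 8 h count higher was 2 without any 1 of the 8 h arrays, 3 without 0 h replicate 4 or 5 and 9 without 0 h replicate 6. At 4 h only CDT1 and FAM111B were lower, 2 of 55 (1.55% of all genes), and 0 were higher (1.37%), where 1 array decided calls (0 lower without 4 h replicate 3).

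The H460 calls at 2 h stand on 3 narrow arrays. There 40 of the 55 genes were lower and 1 higher (23.7% and 16.7% of all genes), with a median of -0.40, and with array width in the model the median was -0.0025 and 0 were called, as were 0 of all 18404 genes, so that fit does not set these genes apart. The fit with array width called 27 lower at 12 h, where it called 1.81% of all genes lower, and 40 at 24 h (4.01%). That fit called 0 of the 55 higher at 8, 12 or 24 h, against 0.397%, 1.6% and 4.4% of all genes, shares of a like size. At 2 h quantile normalization left 13 lower, and 22 were lower without 2 h replicate 3. At 0 h, H460 replicates 3 and 4 had widths of 3.38 and 3.39 and medians of 0.015 and 0.021 from the 0 h mean. The narrowest of that group, replicate 5, had a median of -0.11. The widest, replicate 6, with a width of 3.63, had a median of 0.20 above the 0 h mean. The arrays at 12 and 24 h, of like width, had medians of -0.26 to -0.42. No other H460 array at 0 h was that wide, so time and width overlap in part at 8 to 24 h as well.

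**Figure D1:**
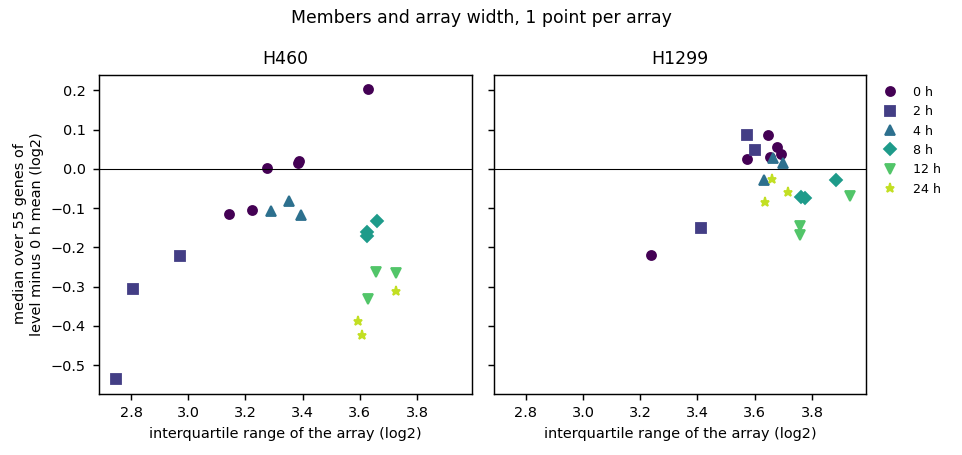
Median over the 55 genes of the log2 level minus the line's 0 h mean (vertical) against array width, the interquartile range of the array in log2 units (horizontal), 1 point per array and 1 panel per line. The 3 H460 arrays at 2 h are the narrowest, while the H460 arrays at 12 and 24 h are wide and lie below 0.

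In H1299 some of the genes were called lower and some higher, and at 12 and 24 h only the lower share was above that of all genes. At 4 h 12 were higher and 5 lower (10.0% and 5.83% of all genes), at 8 h 13 higher and 16 lower (15.0% and 9.54%), and at 12 h 9 higher and 21 lower (16.6% and 13.1%). The higher shares at 8 and 12 h, of 23.6% and 16.4%, stand beside 15.0% and 16.6% of all genes, and the lower shares of 29.1% and 38.2% beside 9.54% and 13.1%. At 24 h 9 were lower and 4 higher (3.21% and 8.53%), and at 2 h 7 and 6 (7.93% and 5.88%). The medians were -0.015, -0.0076, -0.050, -0.14 and -0.050 at 2, 4, 8, 12 and 24 h. Without the narrow 0 h replicate 2 the lower counts at these times were 12, 8, 23, 24 and 17 (12%, 7.92%, 9.24%, 12.5% and 4.86% of all genes). The higher counts were 6, 12, 12, 9 and 2 (6.88%, 9.72%, 14%, 15.9% and 8.23%). With array width in the model 11, 6 and 3 were higher at 4, 8 and 12 h (10.3%, 8.28% and 9.18%) and 10, 28 and 30 lower (8.92%, 7.29% and 8.53%). The higher counts at 8 and 12 h were thus near or below the share of all genes in that fit. Without 8 h replicate 2 the 8 h count lower was 8, and without 2 h replicate 2 or 3 the 2 h count lower was 4 and the count higher 2 (13 higher without 2 h replicate 1). The 4 h count lower was 1 without 0 h replicate 1 or 4 h replicate 2 or 3, 2 without 0 h replicate 6 or 4 h replicate 1, and 3 without 0 h replicate 5. The count higher was 6 at 8 h without 8 h replicate 3 and 5 at 12 h without 12 h replicate 2. At 24 h it was 0 without 24 h replicate 3, 1 without 0 h replicate 3 or 24 h replicate 1, and 2 without 0 h replicate 2 or 4, 24 h replicate 2 or any 1 of the 4 h arrays. Time courses were also called by quadratic regression on hours, the method the series names. By it 26 of the 55 had a fall in H460 and 2 a rise (21.4% and 20.5% of all genes), and 20 and 12 in H1299 (16.6% and 19.9%). The p is that of the regression, while fall or rise is the sign of the largest change from 0 h at any 1 time. In H460 25 of the 55 had their lowest change on the narrow 2 h arrays, so a fall there can rest on 2 h alone. The H460 count with a rise was 5 without 0 h replicate 6 and 4 without 2 h replicate 3. Of the genes lower at 12 h, 18 were lower in both lines, 66.7% of the H460 list and 85.7% of the H1299 list. Over all genes 5.25% were lower in both lines at 12 h, 31.2% of the H460 list and 40.1% of the H1299 list.

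**Figure D2:**
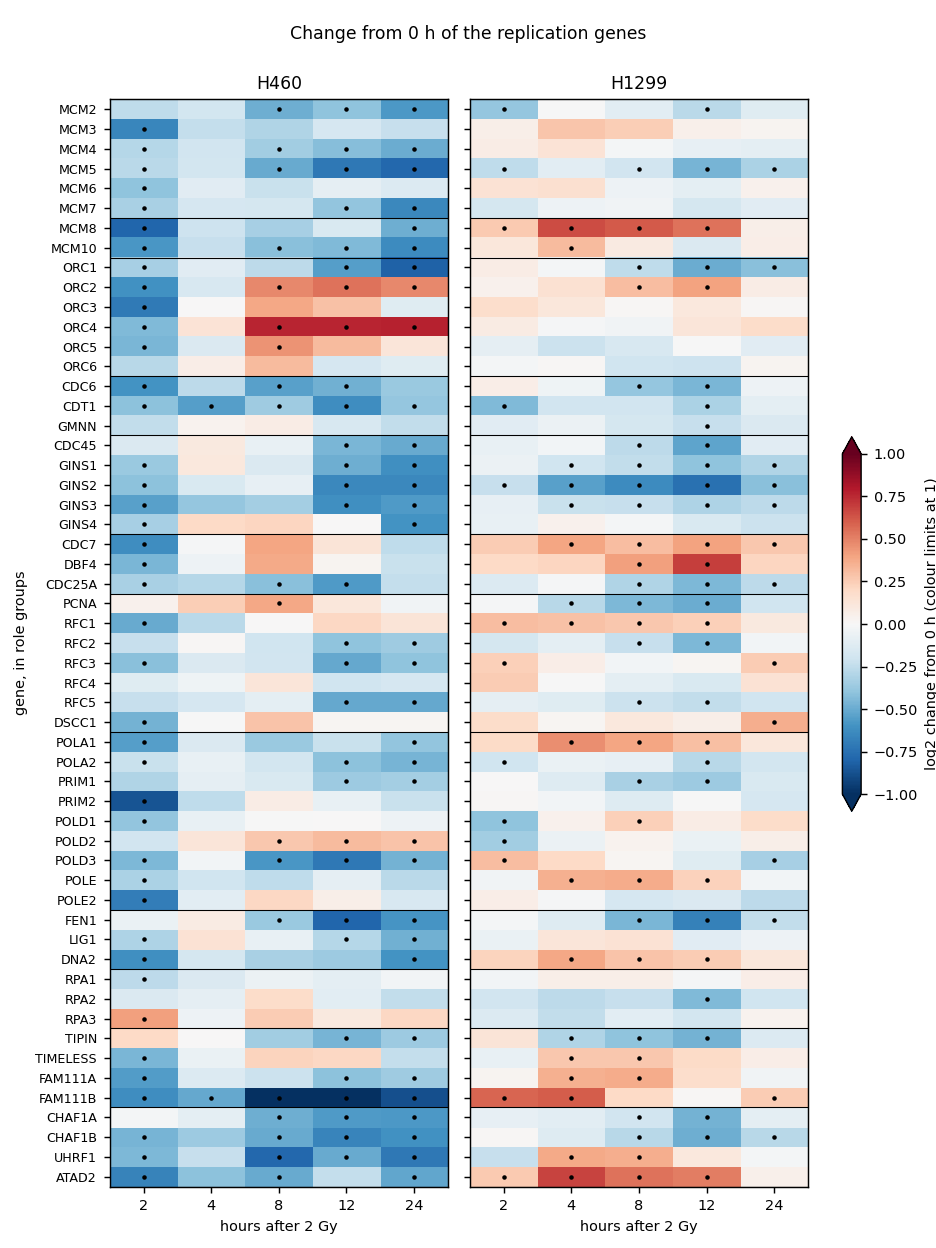
Log2 change from 0 h of the 55 genes (rows, by role) at 2, 4, 8, 12 and 24 h (columns) in H460 and H1299, with colours capped at a change of 1 either way and a dot where the adjusted p was under 0.05. At 12 and 24 h the H460 panel holds 27 and 30 called falls, while the H1299 panel shows rises beside falls at 4 to 12 h. The H1299 share called higher at 12 h (16.4%) was near that of all genes (16.6%).

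The MCM2-7 ring is the motor of the replicative helicase, and its 6 subunits work as 1 complex. In H460 4 of the 6, MCM2, MCM4, MCM5 and MCM7, were lower at 12 and at 24 h, while MCM3 and MCM6 were not called at 4, 8, 12 or 24 h. The H460 arrays at 0 h read 9.51, 9.67 and 9.76 for MCM5 (lowest, median and highest, log2), and 8.93, 9.04 and 8.88 at 12 h and 8.85, 8.88 and 8.91 at 24 h. All these 12 and 24 h values lay below the lowest 0 h array. MCM5 fell by 0.79 ± 0.084 (SE) at 24 h, or 1.72-fold (adjusted p = 1.68e-07). MCM7 read 10.30, 10.55 and 10.71 at 0 h and 9.91, 9.88 and 9.93 at 24 h and fell by 0.64 ± 0.084 (adjusted p = 2.70e-06). MCM4, MCM6 and MCM7 form the core that moves along DNA, and MCM2 and MCM5 flank the gate through which the ring opens. MCM2 read 8.54, 8.80 and 8.99 at 0 h and 8.24, 8.08 and 8.34 at 24 h and fell by 0.58 ± 0.11 (adjusted p = 0.000344). MCM4 read 9.23, 9.41 and 9.46 at 0 h and 8.86, 8.92 and 8.91 at 24 h and fell by 0.49 ± 0.086 (adjusted p = 0.000128). For these 3 subunits too, the 24 h arrays did not overlap those at 0 h.

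The other 2 subunits had smaller changes. MCM3 read 8.51, 9.00 and 9.09 at 0 h and 8.68, 8.64 and 8.71 at 24 h, a change of -0.23 ± 0.13 (adjusted p = 0.180), with overlapping groups. MCM6 read 10.02, 10.21 and 10.44 and 10.02, 10.10 and 10.05, a change of -0.14 ± 0.12 (adjusted p = 0.393), also overlapping. On the narrow 2 h arrays MCM3 read 8.35, 8.60 and 7.82 and fell by 0.65 ± 0.13, and MCM6 read 10.07, 9.94 and 9.38 and fell by 0.40 ± 0.12. With array width in the model these changes were -0.31 and 0.066 (adjusted p = 0.751 and 0.950). The promoters of MCM2, MCM6 and MCM7 printed above were chosen for holding E2F letters, so that they hold them is not a result. The 24 h changes of these subunits were -0.58, -0.14 and -0.64. That of MCM3, whose window also holds the letters, was -0.23.

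In H1299 only MCM2 and MCM5 of the ring were lower at 12 h. MCM5 read 9.60, 9.79 and 10.01 at 0 h and 9.37, 9.26 and 9.35 at 12 h, without overlap, and fell by 0.46 ± 0.068 (adjusted p = 1.36e-05). It fell by 0.32 ± 0.068 at 24 h. MCM2 read 9.22, 9.69 and 9.79 and 9.42, 9.31 and 9.36 and fell by 0.27 ± 0.086 (adjusted p = 0.0205), its 0 h range reaching down to the narrow replicate 2. MCM7 read 10.80, 11.25 and 11.38 and 11.06, 11.01 and 11.00, a change of -0.18 ± 0.083 (adjusted p = 0.105), which without that replicate was -0.26 (adjusted p = 0.000468). The 12 h changes of the remaining subunits were 0.047 ± 0.12 for MCM3, -0.086 ± 0.059 for MCM4 and -0.10 ± 0.083 for MCM6. MCM3 read 8.74, 9.38 and 9.56 at 0 h and 9.32, 9.37 and 9.33 at 12 h, MCM4 read 10.11, 10.33 and 10.36 and 10.23, 10.24 and 10.18, and MCM6 read 10.09, 10.42 and 10.58 and 10.25, 10.38 and 10.25. The groups overlapped for all 3.

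**Figure D3:**
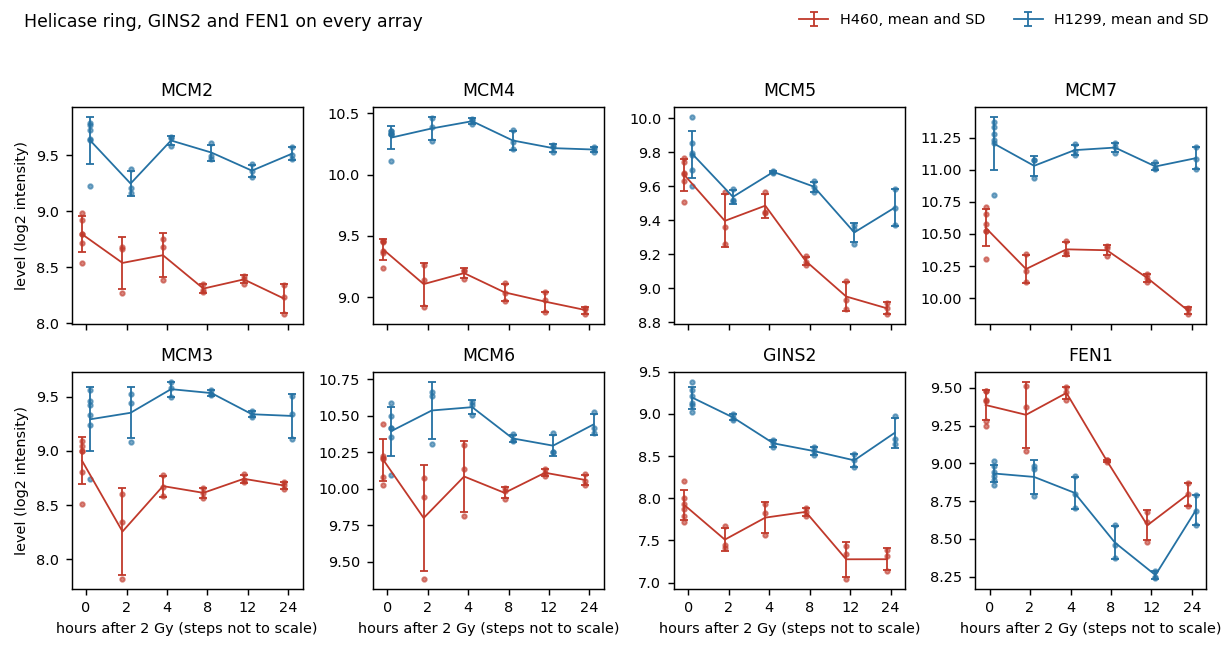
Log2 level on each array (points) with group means and SD (lines and bars) over hours after irradiation for MCM2, MCM4, MCM5, MCM7, MCM3, MCM6, GINS2 and FEN1 in both lines. In H460 the points of MCM2, MCM4, MCM5 and MCM7 at 24 h all lie below those at 0 h, while those of MCM3 and MCM6 overlap them.

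MCM8 and MCM10 are not part of the ring: MCM8, with MCM9, acts in repair by homologous recombination, and MCM10 helps activate the CMG helicase. MCM8 rose in H1299 and fell in H460. H1299 arrays read 8.75, 9.06 and 9.27 at 0 h and 9.82, 9.63 and 9.61 at 4 h, all above the 0 h arrays, and MCM8 rose by 0.65 ± 0.078 (adjusted p = 3.69e-06). It was higher by 0.61 at 8 h and 0.55 at 12 h, and was 0.061 ± 0.078 from 0 h at 24 h. H460 arrays read 9.00, 9.32 and 9.74 at 0 h and 8.86, 8.90 and 8.72 at 24 h, all below, and MCM8 fell by 0.49 ± 0.17 (adjusted p = 0.0317). MCM10 fell by 0.63 ± 0.14 in H460 at 24 h and rose by 0.32 ± 0.078 in H1299 at 4 h.

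The 6 ORC subunits, which mark origins, did not move as a unit. In H460 at 24 h ORC1 was lower and ORC2 and ORC4 were higher, and the group median was 0.0018. ORC1, the subunit whose level rises and falls within the cell cycle, read 8.58, 8.73 and 8.89 at 0 h and 7.81, 8.02 and 7.94 at 24 h and fell by 0.81 ± 0.10 (adjusted p = 1.78e-06). In H1299 it read 8.11, 8.40 and 8.49 and, at 12 h, 7.85, 7.90 and 7.82, and fell by 0.50 ± 0.071 (adjusted p = 1.05e-05). The groups did not overlap in either line. ORC4, a core subunit, read 6.87, 7.22 and 7.66 in H460 at 0 h, 8.00, 7.95 and 7.95 at 8 h and 7.97, 8.12 and 7.85 at 24 h. All these 8 and 24 h values lay above the 0 h arrays. ORC4 rose by 0.77 ± 0.15 at 24 h (adjusted p = 0.000497), but with array width in the model the change was 0.26 and not called (adjusted p = 0.357). ORC2 rose by 0.48 ± 0.11 in H460 at 24 h and by 0.41 ± 0.11 in H1299 at 12 h. In H1299 the 12 h arrays of ORC4 read 8.01, 8.36 and 8.19 against 7.76, 8.12 and 8.19 at 0 h, a change of 0.12 ± 0.11 (adjusted p = 0.433). ORC3, ORC5 and ORC6 had 24 h changes of -0.12, 0.12 and -0.12 in H460, none called, and ORC5 rose by 0.45 ± 0.14 there at 8 h. With array width in the model these H460 rises of ORC2 and ORC5 were not called either.

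The licensing factors CDC6 and CDT1, which load the ring, were lower at 12 h in both lines. CDC6 fell by 0.48 ± 0.16 in H460 and by 0.45 ± 0.10 in H1299, and CDT1 fell by 0.62 ± 0.11 and by 0.31 ± 0.095. CDT1 was already lower in H460 at 4 h, by 0.55. Geminin, which binds CDT1, had a 12 h change of -0.16 ± 0.11 in H460 (adjusted p = 0.286) and fell by 0.23 ± 0.074 in H1299 (adjusted p = 0.0200).

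The helicase activators CDC45 and GINS1 to GINS4 were all lower in H460 at 24 h, 5 of 5, with changes of -0.64 to -0.51. In H1299 4 of 5 were lower at 12 h. GINS2 had the smallest p of the time course among the 55 in H1299. Its H1299 arrays read 9.03, 9.17 and 9.38 at 0 h and 8.53, 8.37 and 8.45 at 12 h, and it fell by 0.74 ± 0.074 (adjusted p = 9.26e-08). It was lower at each time there, by 0.23 at 2 h and 0.42 at 24 h. In H460 it read 7.71, 7.90 and 8.20 at 0 h and 7.05, 7.44 and 7.34 at 12 h, and fell by 0.64 ± 0.12 (adjusted p = 0.000276). At 8 h the H460 change was -0.081 ± 0.12 (adjusted p = 0.639). No 12 h array of GINS2 overlapped the 0 h arrays in either line.

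GINS1 read 8.69, 9.09 and 9.28 in H460 at 0 h and 8.39, 8.56 and 8.36 at 24 h, and fell by 0.61 ± 0.12 (adjusted p = 0.000376). In H1299 it read 8.54, 8.63 and 8.73 and 8.12, 8.33 and 8.23 at 12 h and fell by 0.40 ± 0.065 (adjusted p = 4.95e-05). Neither pair of groups overlapped. CDC45 fell by 0.51 ± 0.10 in H460 at 24 h and by 0.53 ± 0.086 in H1299 at 12 h, and GINS3 fell by 0.61 ± 0.14 and by 0.31 ± 0.073 at 12 h. GINS4 was 0.0030 ± 0.12 from 0 h in H460 at 12 h and fell by 0.60 ± 0.12 at 24 h. It was the only 1 of the 55 to differ between 24 and 12 h in H460 (-0.60, adjusted p = 0.0152), against 0.636% of all genes lower and 1.31% higher, a call that ended without 12 h replicate 1 or 2 or 24 h replicate 1 or 2.

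Of the regulators that fire origins, CDC25A, the phosphatase that activates CDK2, was lower in both lines, and both genes of the CDC7-DBF4 kinase rose in H1299. CDC25A read 8.07, 8.13 and 8.42 in H460 at 0 h and 7.52, 7.70 and 7.65 at 12 h, and fell by 0.57 ± 0.091 (adjusted p = 9.00e-05). In H1299 the levels were 8.06, 8.48 and 8.66 and 7.94, 8.05 and 8.02, and it fell by 0.45 ± 0.085 (adjusted p = 0.000291). The groups were apart in both. DBF4, the activating subunit, read 4.45, 4.67 and 4.84 in H1299 at 0 h and 5.30, 5.52 and 5.23 at 12 h, all above, and rose by 0.69 ± 0.11 (adjusted p = 4.76e-05). CDC7, the catalytic subunit, rose by 0.40 ± 0.088 there. In H460 the 12 h changes were 0.030 ± 0.17 for DBF4 and 0.13 ± 0.15 for CDC7. The 12 h arrays of DBF4 (3.91, 4.02 and 4.03) overlapped those at 0 h (3.26, 3.98 and 4.53). Such levels are near the H460 means at 0 h of EPCAM (3.97) and CDH1 (3.78), which were low, so a change of DBF4 is hard to read there.

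PCNA, the sliding clamp that holds the polymerases on DNA, changed in opposite directions in the 2 lines. The H1299 arrays read 9.96, 10.17 and 10.34 at 0 h and 9.60, 9.76 and 9.63 at 12 h, all below, and PCNA fell by 0.49 ± 0.086 (adjusted p = 0.000118). In H460 it read 10.05, 10.35 and 10.81 at 0 h and 10.77, 10.73 and 10.70 at 8 h, which overlap, and rose by 0.39 ± 0.12 (adjusted p = 0.0241). That H460 call ended with array width in the model (0.12, adjusted p = 0.881), under quantile normalization (adjusted p = 0.123), without 0 h replicate 4 (adjusted p = 0.051) and without any 1 of the 8 h arrays (adjusted p = 0.102, 0.0805 and 0.066). Of the clamp loaders, RFC2, RFC3 and RFC5 were lower in H460 at 12 h, by 0.40, 0.51 and 0.51. RFC2 and RFC5 were lower in H1299 too, by 0.45 and 0.24, while RFC1, the largest subunit, rose by 0.30 ± 0.079 there at 2 h. RFC4 was not called at any time in either line. DSCC1, of the loader used in sister chromatid cohesion, rose by 0.36 ± 0.095 in H1299 at 24 h.

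Among the polymerases and primase, 3 of 9 were lower in H460 at 12 h and 4 of 9 at 24 h, and POLD2 was higher at both. POLD3, an accessory subunit of polymerase delta, had the largest of these falls, 0.71 at 12 h, and POLD2 rose by 0.31 ± 0.090, a call that ended with array width in the model (0.23, adjusted p = 0.389). PRIM1, the catalytic primase subunit, read 10.40, 10.62 and 10.66 in H1299 at 0 h and 10.08, 10.27 and 10.26 at 12 h and fell by 0.36 ± 0.069 (adjusted p = 0.000320). In H460 it read 9.84, 10.03 and 10.42 and 9.69, 9.66 and 9.73 and fell by 0.37 ± 0.12 (adjusted p = 0.0251). The 12 h arrays lay below the 0 h arrays in both lines, but the H460 call ended without any 1 of the 12 h arrays (adjusted p = 0.0694, 0.0876 and 0.061). The catalytic subunits POLA1 and POLE rose in H1299 at 4 h, POLA1 by 0.46 and POLE by 0.36, while POLA2, the second subunit of polymerase alpha, fell by 0.28 ± 0.065 at 12 h. POLD1, POLE2 and PRIM2 had no called change in H460 at 4 to 24 h.

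Of the enzymes that finish lagging-strand fragments, FEN1, the flap endonuclease, fell in both lines. In H460 it read 9.25, 9.42 and 9.48 at 0 h and 8.67, 8.48 and 8.61 at 12 h, and fell by 0.80 ± 0.092, or 1.74-fold (adjusted p = 1.15e-06). Its H1299 levels were 8.86, 8.93 and 9.01 and 8.29, 8.25 and 8.24, and it fell by 0.67 ± 0.066 (adjusted p = 7.37e-08). No 12 h array overlapped those at 0 h, and the promoter of FEN1 printed above holds none of the E2F letters. DNA ligase 1 (LIG1) fell by 0.48 ± 0.094 in H460 at 24 h, against -0.055 ± 0.076 in H1299. DNA2, a nuclease and helicase that trims long flaps, fell by 0.60 ± 0.16 in H460 at 24 h and rose by 0.39 ± 0.081 in H1299 at 4 h. RPA1, RPA2 and RPA3, which coat single-stranded DNA, had no called change in H460 at 4 to 24 h, and of the 3 only RPA2 changed in H1299, where it fell by 0.44 ± 0.12 at 12 h.

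FAM111B, a protease related to FAM111A, which acts at forks stalled by protein adducts, had the largest fall of the 55 in H460. It read 8.29, 8.49 and 8.58 at 0 h and 7.08, 7.26 and 6.91 at 8 h, and fell by 1.38 ± 0.12, or 2.60-fold (adjusted p = 2.57e-08). It remained lower by 0.88 at 24 h. In H1299 the levels were 7.91, 7.99 and 8.33 at 0 h and 8.64, 8.66 and 8.61 at 4 h, and it rose by 0.60 ± 0.080 (adjusted p = 1.16e-05). The groups were apart in both lines, below the 0 h arrays in H460 and above them in H1299. FAM111A fell by 0.41 ± 0.094 in H460 at 12 h and rose by 0.37 ± 0.073 in H1299 at 8 h. TIPIN and TIMELESS form a pair that steadies the fork, and TIPIN fell by 0.46 ± 0.13 and by 0.47 ± 0.098 at 12 h in H460 and H1299. TIMELESS had a 12 h change of 0.20 ± 0.12 in H460 and rose by 0.27 ± 0.094 in H1299 at 8 h.

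CHAF1A and CHAF1B, the large subunits of the histone chaperone CAF-1, fell in both lines. CHAF1A read 8.79, 9.07 and 9.18 in H460 at 0 h and 8.48, 8.38 and 8.50 at 24 h, and fell by 0.58 ± 0.092 (adjusted p = 4.64e-05). The H1299 arrays read 9.26, 9.29 and 9.38 and 8.92, 8.78 and 8.80 at 12 h, and it fell by 0.48 ± 0.064 (adjusted p = 4.62e-06). The groups were apart in both lines. CHAF1B read 8.92, 9.08 and 9.32 and 8.54, 8.40 and 8.43 in H460 at 0 and 12 h and 9.37, 9.54 and 9.67 and 9.06, 9.01 and 9.06 in H1299. It fell by 0.66 ± 0.13 and by 0.49 ± 0.061 (adjusted p = 0.000536 and 1.63e-06), again without overlap.

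The chromatin readers UHRF1 and ATAD2 moved in opposite directions in the 2 lines. UHRF1, which guides DNA methylation after replication, read 8.60, 8.97 and 9.24 in H460 at 0 h and 8.16, 8.19 and 8.12 at 8 h, all below, and fell by 0.79 ± 0.12 (adjusted p = 0.000116). Its H1299 levels were 9.03, 9.29 and 9.48 at 0 h and 9.63, 9.74 and 9.57 at 4 h, all above, and it rose by 0.38 ± 0.085 (adjusted p = 0.00242). Its dimmer entry had means of 5.31 and 5.11 in H1299 at 0 and 4 h, and with the mean of both entries the rise was 0.094 and not called (adjusted p = 0.582). ATAD2, a bromodomain ATPase that binds newly made chromatin, read 8.66, 8.89 and 9.20 in H460 at 0 h and 8.32, 8.43 and 8.43 at 24 h, and fell by 0.52 ± 0.12 (adjusted p = 0.00150). In H1299 the levels were 9.49, 9.70 and 9.82 at 0 h and 10.40, 10.34 and 10.36 at 4 h, without overlap, and it rose by 0.68 ± 0.075 (adjusted p = 1.59e-06).

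**Figure D4:**
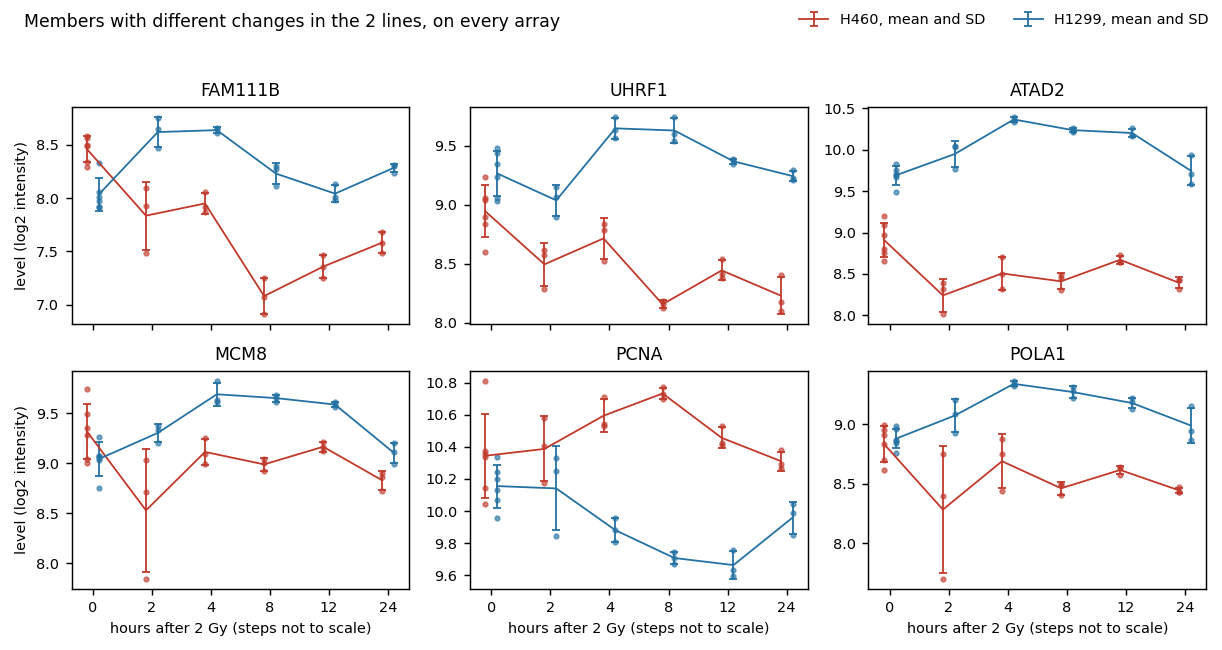
Log2 level on each array (points) with group means and SD (lines and bars) over hours after irradiation for FAM111B, UHRF1, ATAD2, MCM8, PCNA and POLA1 in both lines. At 8 h FAM111B and UHRF1 lie below their 0 h arrays in H460, while PCNA in H1299 lies below its own.

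The difference between the lines was tested as the H460 change minus the H1299 change, over all 42 arrays. At 8 h 12 of the 55 genes had a lower and 5 a higher change in H460 (3.55% and 6.56% of all genes), at 12 h 11 and 3 (3.47% and 5.21%), and at 24 h 17 and 1 (4.70% and 7.75%). At 4 h the counts were 10 and 1 (5.33% and 3.21%), and at 2 h, with the narrow H460 arrays, 25 and 1 (18.5% and 10.2%). The 24 h median was -0.31, against -0.053 over all genes. The lower count at 24 h was 28 under quantile normalization (5.59% of all genes) and 36 with array width in the model (6.38%). The fit with array width left 3 lower at 2 h, near the 3.65% of all genes. Without 1 array, the lower count was 15 at 2 h (H460 2 h replicate 3), 6 at 4 h (H460 4 h replicate 2) and 6 at 12 h (each of H460 12 h replicates 2 and 3 and H1299 12 h replicates 1 and 2). The counts higher went from 1 to between 0 and 2 at 4 and 24 h and from 1 to 0 at 2 h, and from 3 to 1 at 12 h without H460 12 h replicate 1 or 2 or H1299 12 h replicate 1.

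FAM111B differed at 8 h by -1.57 ± 0.14 (adjusted p = 5.37e-10) and was past the threshold at all 5 times. UHRF1 differed by -1.15 ± 0.15 (adjusted p = 1.49e-06) and ATAD2 by -1.05 ± 0.14 (adjusted p = 2.58e-06) at 8 h. MCM8 differed by -0.94 ± 0.20 (adjusted p = 0.00165) and POLA1 by -0.77 ± 0.16 (adjusted p = 0.00210). PCNA differed the other way, by 0.84 ± 0.15 (adjusted p = 0.000273), and so did ORC4, by 0.79 ± 0.20 (adjusted p = 0.00662). GINS2, lower in H1299 at 8 h and not in H460, differed by 0.55 ± 0.14 (adjusted p = 0.00681), which was 0.47 (adjusted p = 0.0754) against 0 h replicates 4 to 6 alone.

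At 24 h 4 of the 6 ring subunits had a lower change in H460. MCM7 differed by -0.53 ± 0.12 (adjusted p = 0.00148), MCM5 by -0.47 ± 0.10 (adjusted p = 0.00142) and MCM4 by -0.40 ± 0.097 (adjusted p = 0.00437). MCM2 differed by -0.46 ± 0.14 (adjusted p = 0.0250), a call that ended without H460 24 h replicate 2 (adjusted p = 0.107) or H1299 24 h replicate 1 (adjusted p = 0.0744). MCM3 and MCM6 differed by -0.26 ± 0.19 and -0.18 ± 0.15 and were not called. All 3 enzymes of fragment processing had a lower change in H460 at 24 h, with differences of -0.71 for DNA2, -0.42 for LIG1 and -0.35 for FEN1. The FEN1 call ended without H460 24 h replicate 1 or 3 or H1299 24 h replicate 1 or 3 (adjusted p = 0.0857, 0.0535, 0.106 and 0.0517). CHAF1A (-0.48 ± 0.11, adjusted p = 0.00193) and CDC45 (-0.39 ± 0.13, adjusted p = 0.0446) also had a lower change in H460.

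**Figure D5:**
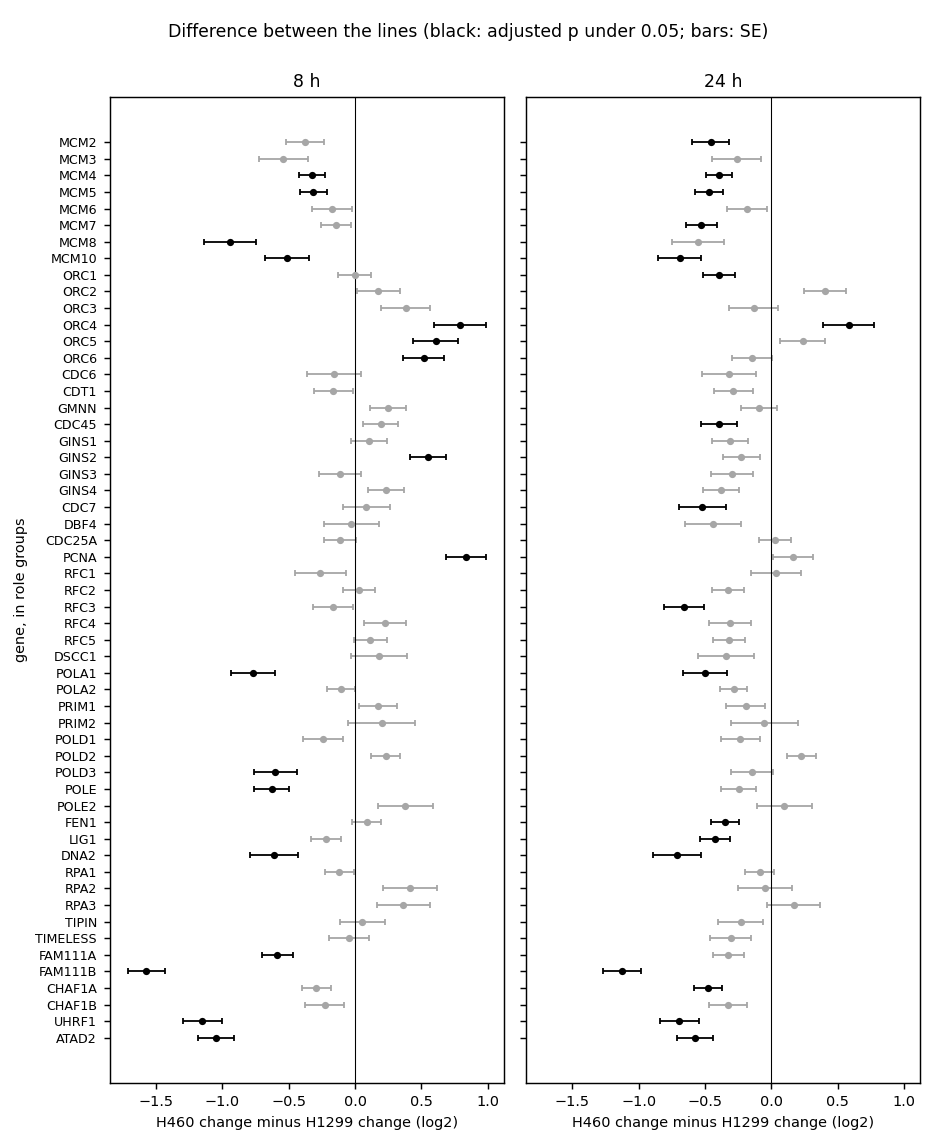
H460 change minus H1299 change from 0 h (log2, points) with its standard error (bars) for the 55 genes at 8 and 24 h, with called differences marked. FAM111B, UHRF1 and ATAD2 lie farthest below 0 at 8 h and PCNA and ORC4 farthest above it.

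Between 12 and 24 h the H1299 levels of some genes moved back. At 24 h 6 of the 55 were higher than at 12 h and 3 lower (10.9% and 5.45%, against 3.24% and 5.11% of all genes). The lower share was thus near that of all genes. FEN1 was higher by 0.43, CDC45 and RFC2 by 0.42 each, CDC6 by 0.40, CHAF1A by 0.38 and GINS2 by 0.33, all 6 of which had fallen by 12 h. MCM8, DBF4 and ATAD2, which had risen by 12 h, fell by 0.48 ± 0.090, by 0.47 ± 0.13 and by 0.46 ± 0.086. The change by 12 h and the change after it use the same 12 h arrays, so they are not independent. The higher count was 12 without 0 h replicate 2, 10 without 2 h replicate 1 and 3 without 24 h replicate 2, and the lower count was 5 without 0 h replicate 2. In H460 the 24 h minus 12 h changes were 0.20 for FEN1, -0.048 for CDC45 and 0.00065 for GINS2, none called.

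Before irradiation the lines already differed. At 0 h 33 of the 55 were lower and 11 higher in H460 than in H1299 (29.1% and 26.0% of all genes). ORC3 was -1.80, DSCC1 -1.60 and GMNN -1.42 in H460 minus H1299, while CDC6 was 0.55, GINS3 0.50 and DNA2 0.48. Of the ring, MCM4 (-0.91 ± 0.068) and MCM2 (-0.84 ± 0.097) had the largest differences, and MCM5 (-0.12 ± 0.075) and MCM6 (-0.20 ± 0.086) were not called.

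E2F letters and changes were set side by side for the 45 genes with a window. In H460 the 20 genes with the letters had a median change of -0.40 at 12 h and the 25 without them -0.16, and at 24 h -0.40 and -0.24. In H1299 at 12 h the medians were -0.16 and -0.14. Of the windows of genes lower in H460 at 12 h, 12 of 23 held the letters, against 8 of 19 of genes not called and 0 of 3 of genes that were higher. MCM6, with 2 overlapping pairs, was -0.089 from 0 h at 12 h, and FEN1, with none, -0.80.

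Another 42 measured genes of replication, such as checkpoint mediators, topoisomerases and E-type cyclins, were counted the same way. In H460 11 of 42 were lower and 3 higher at 12 h (26.2% and 7.14%, beside 16.8% and 16.7% of all genes), and 13 and 5 at 24 h (31.0% and 11.9%, beside 12.4% and 16.2%). In H1299 4 were lower and 12 higher at 12 h (9.52% and 28.6%, beside 13.1% and 16.6%). Cyclin E2 (CCNE2), a partner of CDK2, fell by 1.79 ± 0.15 in H460 at 8 h, and DONSON, a helicase assembly factor, fell by 0.75 ± 0.14 at 12 h. The PCNA-associated factor PCLAF fell by 0.59 ± 0.10 at 12 h and POLE3, a subunit of polymerase epsilon, fell by 0.59 ± 0.092 at 24 h. Cyclin E1 (CCNE1) fell by 0.72 ± 0.14 in H460 at 8 h and by 0.74 ± 0.065 in H1299 at 12 h, where POLE3 fell by 0.44 ± 0.055. In H1299 topoisomerase II alpha (TOP2A) rose by 0.85 ± 0.063 at 12 h, TOP1 rose by 0.51 ± 0.059 at 24 h and TICRR, which brings TOPBP1 to origins, rose by 0.54 ± 0.073 at 8 h.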

How the data were processed

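Values are the authors' deposited log2 intensities, 1 table of 32321 rows and 42 arrays, with a range of 1.45 to 14.2. Samples were grouped by line and hours from the labels, which give 100 ng of total RNA per label reaction. The software and the normalization method are not given in the sources used here, and no array labelled as unirradiated after 0 h was analysed here. Genes were named from the platform annotation, with symbols updated by gene ID through RefSeq: 19158 rows had 1 symbol, 1388 several and 11775 none listed, and those without a single symbol were left out. For several rows per gene the row with the highest mean was kept (754 rows left out), giving 18404 genes with no filter on low values.

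limma 3.58.1 in R 4.3.3 (lmFit, eBayes with a trend) was fitted per line (21 arrays) with 1 mean per time point, per line on hours and hours squared (moderated F-test), over 42 arrays for the difference between lines and over the 12 arrays at 0 h. Tests were two-sided, p-values were adjusted by Benjamini-Hochberg over all genes of each comparison, and a call is an adjusted p under 0.05. Changes are log2 differences with standard errors. The fit was checked on simulated data. Promoter windows were searched on both strands. Precision is set by the count of arrays per group. The members and gene lists were chosen with earlier results of these data known. Described in full were the 10 members with the smallest time course p in each line, the ring, and the 5 with the smallest p of the difference, and of the other replication genes up to 5 per line were named. Alternatives tried were quantile normalization, median centring, array width as a covariate, narrow arrays left out, robust fitting, the mean of a gene's rows, a replicate block, 0 h arrays 1 to 3 or 4 to 6 alone, and each array left out.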

Additional observations from a re-analysis of the deposited data

Results flagged for a closer look

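In 20 of the 110 groups of 6 arrays at 0 h, 1 array lay past Dixon's critical value from the rest, and chance puts about 1 in 20 groups there. Of these, 14 were the narrow H1299 array, 0 h replicate 2, at the lowest log2 level. Its levels were 9.22 for MCM2, 10.11 for MCM4, 10.80 for MCM7, 8.12 for MCM10, 8.65 for ORC2, 9.97 for ORC3, 7.76 for ORC4, 8.57 for ORC5, 9.07 for CDC6, 8.46 for CDT1, 8.06 for CDC25A, 8.82 for POLA2, 8.21 for POLE and 8.10 for RPA2. H460 0 h replicate 6, the widest of its group, was the highest for GMNN (8.68), RFC2 (9.78), RFC4 (9.33) and RPA2 (8.18). RFC1 was lowest on H460 0 h replicate 5 (8.29), and FAM111B was highest on H1299 0 h replicate 5 (8.33). The part of array width in these values was not tested.

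The change from 0 h differed between the lines, by the test of that difference, at 1 or more times for 40 of the 55 genes (72.7%), against 44.4% of all genes. Each is given below at its largest called difference, as the H460 change minus the H1299 change on the log2 scale. At 2 h the difference was -1.05 for MCM8, -0.88 for ORC3, -0.87 for CDC7, -0.87 for PRIM2, -0.84 for DNA2, -0.81 for RFC1, -0.76 for POLD3, -0.75 for POLE2, -0.71 for MCM3, -0.70 for MCM10, -0.66 for CDC6, -0.66 for DSCC1, -0.66 for RFC3, -0.65 for ORC2, -0.59 for FAM111A, -0.54 for MCM6, -0.48 for CHAF1B, -0.46 for GINS3, -0.41 for ORC1 and 0.55 for RPA3. At 4 h the difference was -1.08 for ATAD2. At 8 h the difference was -1.57 for FAM111B, -1.15 for UHRF1, -0.77 for POLA1, -0.63 for POLE, 0.52 for ORC6, 0.55 for GINS2, 0.61 for ORC5, 0.79 for ORC4 and 0.84 for PCNA. At 12 h the difference was -0.66 for DBF4 and 0.38 for POLD2. At 24 h the difference was -0.53 for MCM7, -0.48 for CHAF1A, -0.47 for MCM5, -0.46 for MCM2, -0.42 for LIG1, -0.40 for MCM4, -0.39 for CDC45 and -0.35 for FEN1. The values at 2 h come from narrow H460 arrays. With array width in the model 3 genes had a called lower change in H460 at that time in place of 25, near the 3.65% of all genes. Without H460 2 h replicate 3 the 2 h calls of MCM3, MCM6, ORC1 and CHAF1B ended (adjusted p = 0.0517, 0.0870, 0.0898 and 0.117). The 12 h call of DBF4, whose levels were low in H460, was lost under 13 of 52 alternatives. Among them were quantile normalization (adjusted p = 0.123) and leaving out any 1 of the H460 12 h arrays (adjusted p = 0.0947, 0.0692 and 0.0619). Leaving out H1299 12 h replicate 1 or 2 also ended it (adjusted p = 0.0615 and 0.120).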

How the results depend on the processing

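Counts of genes called lower stayed within 1.5 times of the reported value under all alternatives tried for H460 at 12 h (23 to 34), H460 at 24 h (23 to 40), H1299 at 12 h (17 to 31), the H1299 time course (17 to 26) and the lines at 0 h (22 to 35), as did the counts higher in H1299 at 4 h (9 to 13), in the H1299 time course (8 to 18) and in H460 at 0 h (9 to 13). The other counts moved under 1 or more alternatives, and the cause was not tested. With quantile normalization the counts lower were 13 in H460 at 2 h, 28 at 8 h, 16 in H1299 at 24 h and 28 for the difference at 24 h, and 16 genes were higher in H1299 at 24 h than at 12 h. With array width in the model they were 0, 5 and 9 in H460 at 2, 4 and 8 h, 28 and 20 in H1299 at 8 and 24 h, 3 and 36 for the difference at 2 and 24 h, 2 for H460 at 24 h against 12 h, and 21 were higher in H1299 at 24 h than at 12 h. Without the 4 narrow arrays they were 5 in H460 at 4 h, 2 at 24 h against 12 h, 12 and 17 in H1299 at 2 and 24 h, and 12 were higher in H1299 at 24 h than at 12 h; no value was possible for H460 at 2 h or the difference there. Median centring gave 2 in H460 at 24 h against 12 h and 4 in H1299 at 2 h, and 1 mean per time point gave 43 falls in the H460 time course. Against 0 h replicates 1 to 3 alone the counts were 1 in H460 at 4 h, 3 and 7 in H1299 at 2 and 8 h and 7 for the difference at 12 h, and against replicates 4 to 6 alone 1 in H460 at 4 h, 4, 7 and 6 for the difference at 4, 8 and 12 h, and 14 higher in H1299 at 24 h than at 12 h.

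Same-numbered arrays did not deviate together (median correlation -0.021 in H460 and -0.057 in H1299, over 0.1 in 6 and 12 of 45 pairs), so the numbers were not taken to pair the samples. With a replicate block the counts lower were 23 and 25 in H460 at 12 and 24 h and 17 in H1299 at 12 h, and 1 in H460 at 4 h, 3, 7 and 5 in H1299 at 2, 8 and 24 h.

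Leaving out 1 array gave 22 to 43 for H460 at 2 h (22 without 2 h replicate 3), 0 to 4 at 4 h (0 without 4 h replicate 3, 4 without 2 h replicate 1 or 3), 9 to 19 at 8 h (9 without 8 h replicate 2) and 0 to 2 at 24 h against 12 h (2 without 2 h replicate 3, 0 without 12 h replicate 1 or 2 or 24 h replicate 1 or 2). For H1299 it gave 4 to 12 at 2 h (12 without 0 h replicate 2, 4 without 2 h replicate 2 or 3), 8 to 23 at 8 h (8 without 8 h replicate 2), 6 to 17 at 24 h (17 without 0 h replicate 2) and 3 to 12 higher at 24 h than at 12 h (12 without 0 h replicate 2, 10 without 2 h replicate 1, 3 without 24 h replicate 2). The difference gave 15 to 31 at 2 h (15 without H460 2 h replicate 3), 6 to 12 at 4 h (6 without H460 4 h replicate 2) and 6 to 11 at 12 h (6 without H460 12 h replicate 2 or 3 or H1299 12 h replicate 1 or 2).

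Of 2442 alternative values of 63 changes of named genes, 2364 kept their direction and call, 65 lost the call, 11 gained one and 2 turned: with array width in the model the H460 2 h change was 0.16 for DBF4 (adjusted p = 0.917) and 0.066 for MCM6 (adjusted p = 0.95), neither called. Many of these alternatives left out an array outside the groups compared. That cannot move the change itself, only its p, so much of the count kept was fixed in advance. Time and array width overlap at 2 h in H460, where they cannot be told apart. They overlap in part at 8 to 24 h there, with mean widths of 3.64 to 3.67. Of the H460 arrays at 0 h only replicate 6 (3.63) was about as wide. Having 3 arrays per time point limits every comparison.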
